A study of Mus musculus with 6 samples.

Results

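The 38 genes described here are a list of astrocyte markers, named by their mouse symbols and taken from the 55385 genes counted in each library. All 38 were found among the counted genes, and 37 had enough reads to be tested. The exception was Gjb6, with 1 to 6 reads per library. RNA came from primary cultures of mouse cortical neurons, isolated from embryos at day 18 and harvested after 16 days in vitro. Every culture, controls included, had been given 2.5 uM AraC for 24 hours from day 2. AraC blocks DNA synthesis and so acts against dividing cells such as glia. The control libraries came from cultures left untreated, and the activated libraries from cultures depolarised with KCl for 5 minutes and allowed 30 minutes of recovery, with 3 libraries per group. For KCl the protocol text gives 50 mM while the treatment label gives 50 uM, and the counts hold no means of choosing between them. Nothing in the labels ties a replicate to its own culture or litter, and each p-value reflects just the variation among these 6 libraries, which may be technical.

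Astrocytes are glial cells that take up glutamate released at synapses, turn it into glutamine, carry water and ions between tissue and vessels, and pass small molecules to each other through gap junctions. Their markers are shared in part with radial glia, the neural stem cells of the embryonic cortex, which carry vimentin, nestin, brain lipid-binding protein and Sox9. After injury or inflammation astrocytes become reactive, a state known for higher Gfap, vimentin, lipocalin-2 and serpin A3N. Several markers are also made outside astrocytes: Apoe and Cst3 by microglia, and Vim, Sparc and Cd44 by vascular and connective tissue cells.

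Gene reads per library ranged from 17752700 to 32920000. Markers of neurons, the labelled cell type, were present in every library, with a summed level of 9810 to 9899 CPM (read counts divided by library size, with TMM scaling) over 22 genes in control and 8063 to 8779 CPM in activated libraries. The direction of activity-induced genes went against the labels. Fos stood at 210.1, 203 and 195 CPM in control replicates 1, 2 and 3 and at 79.0, 78.6 and 113 CPM in activated replicates 1, 2 and 3, and Arc and Npas4 had log2 fold changes of −1.84 and −1.84. For this reason the groups are called the libraries labelled control and labelled activated, and every direction given is that of the labels. The share of reads from mitochondrial transcripts was 14.7% to 17.1% in labelled control and 21.3% to 25.0% in labelled activated libraries.

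By TMM scaling, astrocyte markers rose with the label activated. Of the 38 members, 32 rose, none fell, 5 did not pass and 1 was not tested (edgeR quasi-likelihood test, adjusted p below 0.05 over 18132 genes), where 16.2% of all genes tested rose, 20.6% fell and 36.8% passed in either direction. The median log2 fold change of the 37 tested members was 0.58, beside 0.043 over all genes tested. The members' summed level went from 3316 ± 119 CPM to 4727 ± 385 CPM (SD, n = 3 each). In 32 of the tested members all 3 libraries labelled activated lay above all 3 labelled control, which held for 22.6% of all genes tested. All 32 of these also passed the test. Slc14a1 and S100b reached the level of the filter on low counts in all 3 libraries labelled activated but not in all 3 labelled control. Without these 2 genes 31 of 35 members rose. In bulk RNA of a mixed culture, more cells of a type and more RNA per cell cannot be told apart.

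The size of these changes, and for some members the direction, depended on how libraries were scaled. With libraries scaled to 22 neuronal genes, which moved the median of all genes to 0.49, all 37 members were called higher, around a median of 1.02. Under that scaling 64.7% of all genes tested were called higher as well. Libraries were scaled instead to other astrocyte genes, the 43 of a list of 47 that passed the low-count filter, none of them a member. The median of all genes then moved to −0.35 and that of the members to 0.19. Then 15 members were called higher, namely Gfap, Vim, Slc1a3, Aqp4, Gja1, Mlc1, Slc14a1, Cd44, Id3, Gli3, Chil1, Lcn2, Serpina3n, Apoe and Sparc, and 2 lower, Id4 and Sparcl1. Over all genes tested, 2.21% were called higher under this scaling, and 8898 of 18132 were called lower. Slc1a2, Glul, Aldoc, Slc4a4, Sox9, Sparcl1, Atp13a4 and Hopx turned negative, and all of these but Sparcl1 did not pass. A change of scaling shifts all genes by nearly the same amount, so the gap between the members' median and that of all genes could hardly change. It was 0.53 under the neuronal and 0.54 under the astrocyte scaling, and 0.54 by TMM. Values below are by TMM unless stated, and a value relative to other astrocyte genes is one under the astrocyte scaling.

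**Figure D1:**
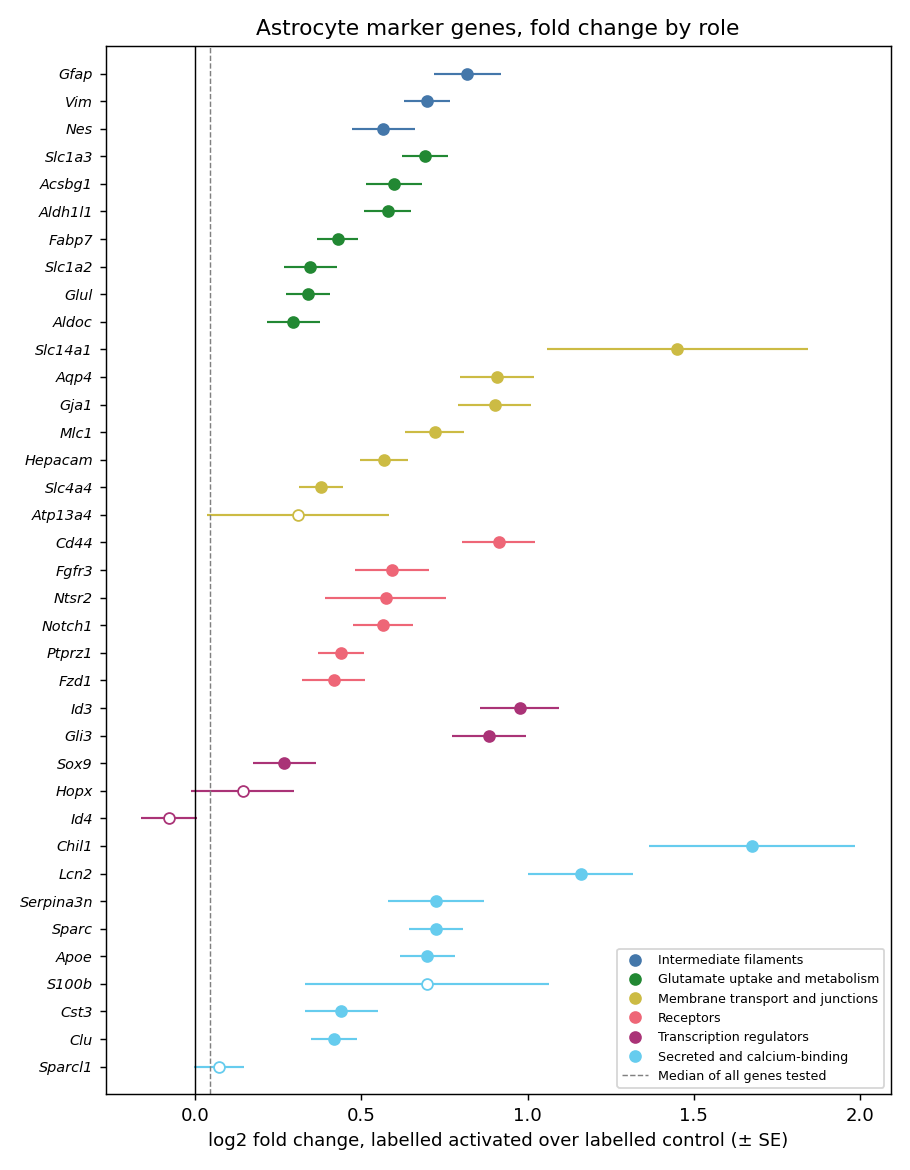
Log2 fold change of each tested astrocyte marker, libraries labelled activated over labelled control by TMM, with its standard error, grouped and coloured by role. Filled points passed the edgeR test (32 genes) and open points did not (5 genes); the dashed line is the median of all genes tested, 0.043. Values run from −0.079 for Id4 to 1.68 for Chil1, and scaling to other astrocyte genes turns Slc1a2, Glul, Aldoc, Slc4a4, Sox9, Sparcl1, Atp13a4 and Hopx negative, while scaling to neuronal genes turns Id4 positive. Of those that turn negative, only Sparcl1 was called.

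Upstream sequences are shown for 4 members: Gfap and Slc1a3, long-used astrocyte markers that rose, and the paralogous genes Id3, which rose, and Id4, which did not pass. Each is the 250 bases before the start site given by RefSeq (GRCm38.p6), 5′ to 3′ on the gene's strand, and capitals mark a match to one of the motifs searched.
Gfap (chr11:102897201-102897450, minus strand): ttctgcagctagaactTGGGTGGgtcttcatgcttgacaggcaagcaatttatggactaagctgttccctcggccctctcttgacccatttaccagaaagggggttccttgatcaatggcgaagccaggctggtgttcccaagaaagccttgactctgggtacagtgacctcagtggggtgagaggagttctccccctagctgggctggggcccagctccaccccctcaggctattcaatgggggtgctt
Slc1a3 (chr15:8710808-8711057, minus strand): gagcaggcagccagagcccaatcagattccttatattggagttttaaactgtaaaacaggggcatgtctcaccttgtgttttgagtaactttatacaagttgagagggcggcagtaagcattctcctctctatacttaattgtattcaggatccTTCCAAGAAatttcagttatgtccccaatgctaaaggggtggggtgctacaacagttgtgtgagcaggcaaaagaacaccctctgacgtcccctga
Id3 (chr4:136143572-136143821, plus strand): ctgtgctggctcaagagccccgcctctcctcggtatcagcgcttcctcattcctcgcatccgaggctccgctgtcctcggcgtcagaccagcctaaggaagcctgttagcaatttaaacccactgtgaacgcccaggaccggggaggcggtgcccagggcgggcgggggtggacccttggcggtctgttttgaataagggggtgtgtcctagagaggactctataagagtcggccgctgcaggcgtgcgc
Id4 (chr13:48260866-48261115, plus strand): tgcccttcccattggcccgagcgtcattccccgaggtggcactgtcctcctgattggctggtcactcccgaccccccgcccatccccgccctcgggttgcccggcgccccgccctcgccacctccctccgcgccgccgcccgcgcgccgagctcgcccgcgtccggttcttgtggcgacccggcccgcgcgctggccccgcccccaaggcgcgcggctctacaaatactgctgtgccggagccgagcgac
The capitals in the Gfap sequence are the core GLI motif (TGGGTGG on either strand), 234 to 228 bases before the start. Those in the Slc1a3 sequence are a STAT motif (TTC and GAA with 3 bases between them, the same on both strands), 96 to 88 bases before the start. Neither Id gene held a match in this window. The Id4 stretch was 75.6% G and C with 35 CpG dinucleotides, and the Id3 stretch 62.8% with 18, whereas Gfap and Slc1a3 had 55.6% and 44.8% with 2 CpG each.

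RefSeq promoters, each from 250 bases before to 50 after a start, were found for 33 of the 38 members, 40 promoters in all. The STAT motif lay in 5 of them (12.5%), beside 8.3% of all 32851 promoters in the table, and the members were Acsbg1, Aldoc, Gfap, Ntsr2 and Slc1a3. The match at Gfap spans the start site and so runs past the end of the stretch printed above. The core GLI motif lay in 4 (10%, beside 9.3% of all), those of Apoe, Gfap, Gjb6 and Slc4a4. The RBPJ motif (GTGGGAA, either strand) lay in 2, both of Aldoc (5%, beside 6.38%). No member promoter held the NFI motif, TGGC and GCCA with 5 bases between them, which 0.807% of all promoters held. Matches of different motifs may share letters, and a match is only a description of the letters.

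All 3 intermediate filament genes rose by TMM, and Gfap and Vim were still called relative to other astrocyte genes. Gfap (ENSMUSG00000020932.14, chromosome 11, 102887336 to 102900912, minus strand) encodes glial fibrillary acidic protein, the filament most used to identify astrocytes. It stood at 38.3, 37.0 and 33.7 CPM in control replicates 1, 2 and 3 and at 55.5, 59.5 and 76.4 CPM in activated replicates 1, 2 and 3. The groups did not overlap, and activated replicate 3 was the highest library. This gave a log2 fold change of 0.82 ± 0.10 (SE), with an edgeR adjusted p of 6.85e-05, and 0.41 relative to other astrocyte genes. Vim (ENSMUSG00000026728.9, chromosome 2, 13573927 to 13582826, plus strand), the filament of radial glia and of reactive astrocytes, was the more abundant gene, with 281, 256 and 249 CPM in labelled control and 425, 401 and 449.7 CPM in labelled activated libraries. It was higher in each library labelled activated by a similar amount, with a log2 fold change of 0.70 ± 0.069 (edgeR adjusted p = 1.79e-05). Nes encodes nestin, a filament of neural stem cells. Its values were 106, 97.4 and 102 CPM and 169, 159.5 and 123 CPM in replicates 1, 2 and 3 of each group, a log2 fold change of 0.57 ± 0.094 by TMM, which did not pass relative to other astrocyte genes (0.19, edgeR adjusted p = 0.166). Here activated replicate 3, the highest library for Gfap and Vim, was the lowest of its group.

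Genes of glutamate uptake and metabolism all rose by TMM. The 7 members had log2 fold changes from 0.30 to 0.69 with a median of 0.43. Relative to other astrocyte genes Slc1a3 was the only one of them still called, and Slc1a2, Glul and Aldoc turned negative. Slc1a3 (ENSMUSG00000005360.14, chromosome 15, 8634124 to 8710764, minus strand) encodes GLAST, the glutamate transporter of radial glia and young astrocytes. Its level went from 185, 175 and 178 CPM in control replicates 1, 2 and 3 to 294, 263 and 311 CPM in activated replicates 1, 2 and 3, with no overlap and a log2 fold change of 0.69 ± 0.069 (edgeR adjusted p = 1.85e-05). Slc1a2 (ENSMUSG00000005089.15, chromosome 2, 102658659 to 102790784, plus strand) encodes GLT-1, the main glutamate transporter of mature astrocytes. It had 476, 496 and 493 CPM and 607, 554 and 699.5 CPM in the same order, and its log2 fold change was 0.35 ± 0.080 by TMM (edgeR adjusted p = 0.00416) but −0.055 relative to other astrocyte genes. Both transporters were lowest, within the libraries labelled activated, in replicate 2. Glul, the glutamine synthetase that converts the glutamate taken up, had a change near that of Slc1a2, at 153, 156 and 143 CPM and 194, 176 and 202 CPM, with 0.34 ± 0.067 by TMM and −0.055 relative to other astrocyte genes.

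Among metabolic enzymes, Aldh1l1, the folate enzyme widely used as a marker of all astrocytes, had 28.1, 28.1 and 26.7 CPM in labelled control and 44.6, 39.4 and 40.1 CPM in labelled activated libraries. Values lay close together within each group (log2 fold change 0.58 ± 0.071, edgeR adjusted p = 6.41e-05), but the value relative to other astrocyte genes was 0.19 and did not pass (edgeR adjusted p = 0.151). Acsbg1, an acyl-CoA synthetase, and Fabp7, the brain lipid-binding protein of radial glia, had log2 fold changes of 0.60 and 0.43 by TMM and of 0.20 and 0.037, neither passing, relative to other astrocyte genes. Aldoc, the brain form of the glycolytic enzyme aldolase, had the lowest value of the 7, at 57.1, 61.2 and 58.9 CPM against 68.3, 66.1 and 82.5 CPM. Its log2 fold change was 0.30 ± 0.080 by TMM (edgeR adjusted p = 0.0108) and −0.11 relative to other astrocyte genes. Without activated replicate 3 it was 0.18, still called.

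Of the 8 genes for membrane transport and junctions, 6 rose by TMM, Atp13a4 did not pass and Gjb6 was not tested. Over the 7 tested the median log2 fold change was 0.72, and Slc4a4 and Atp13a4 turned negative relative to other astrocyte genes. Aqp4 (ENSMUSG00000024411.11, chromosome 18, 15389496 to 15410982, minus strand) encodes the water channel of astrocyte endfeet. It stood at 33.2, 28.9 and 30.2 CPM in control replicates 1, 2 and 3 and at 49.9, 51.8 and 70.7 CPM in activated replicates 1, 2 and 3, with activated replicate 3 well above the other libraries. The log2 fold change was 0.91 ± 0.11 (edgeR adjusted p = 6.53e-05), 0.50 relative to other astrocyte genes. Gja1 (ENSMUSG00000050953.10, chromosome 10, 56377330 to 56402513, plus strand) encodes connexin 43, the main gap junction protein of astrocytes. Its values of 32.0, 22.6 and 28.7 CPM and 47.2, 49.4 and 58.9 CPM did not overlap either, and control replicate 2 was the lowest library. Its log2 fold change was 0.90 ± 0.11, close to that of Aqp4. The other astrocyte connexin gene, Gjb6 (connexin 30), which appears late in astrocyte maturation, was listed with 1, 3 and 3 reads in control and 1, 4 and 6 reads in activated replicates 1, 2 and 3, too few to compare.

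Mlc1 and Hepacam encode membrane proteins that bind each other at astrocyte junctions. Mlc1 had 54.2, 47.5 and 46.7 CPM in labelled control and 89.0, 70.4 and 85.4 CPM in labelled activated libraries, a log2 fold change of 0.72 ± 0.088, and Hepacam had one of 0.57 ± 0.074, which relative to other astrocyte genes was 0.18 and did not pass. Slc4a4, a sodium bicarbonate cotransporter, went from 128, 127 and 134 to 158, 166 and 182 CPM, with 0.38 ± 0.066 by TMM and −0.018 relative to other astrocyte genes. The urea transporter gene Slc14a1 had a large but poorly determined change. Its counts were low, at 0.495, 0.931 and 0.296 CPM and 0.952, 1.22 and 2.16 CPM, where control replicate 2 nearly reached activated replicate 1. The log2 fold change of 1.45 ± 0.39 (edgeR adjusted p = 0.0106) was 1.09 with no call when control replicate 3 was left out (edgeR adjusted p = 0.0595). Atp13a4, a P-type ATPase, had 1.13, 0.974 and 1.27 CPM and 0.833, 1.83 and 1.41 CPM with overlapping groups, and a log2 fold change of 0.31 ± 0.27 by TMM and −0.091 relative to other astrocyte genes.

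**Figure D2:**
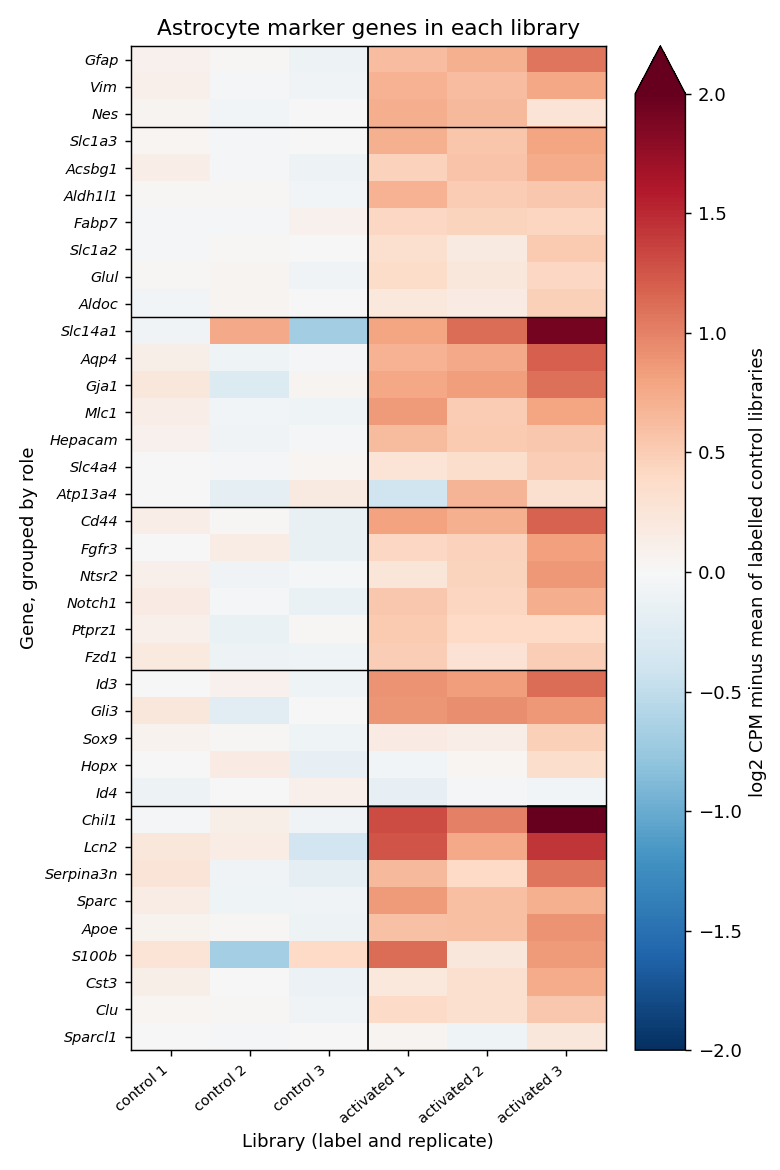
Level of each tested astrocyte marker in each library, as log2 CPM by TMM minus the mean of the 3 labelled control libraries, with genes grouped by role. Colour runs from blue (below the control mean) to red (above it), and the highest value, for Chil1 in activated replicate 3, is 2.09, just past the end of the scale. Activated replicate 3 is the highest library for 26 of the 37 genes. Under scaling to other astrocyte genes Slc1a2, Glul, Aldoc, Slc4a4, Sox9, Sparcl1, Atp13a4 and Hopx turn negative, only Sparcl1 with a call, and Id4 turns positive under scaling to neuronal genes.

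All 6 receptor genes rose by TMM, with log2 fold changes from 0.42 to 0.91, and relative to other astrocyte genes Cd44 alone was still called. Cd44 (ENSMUSG00000005087.17, chromosome 2, 102811141 to 102901665, minus strand), the hyaluronan receptor found on reactive and fibrous astrocytes, went from 31.7, 29.1 and 25.8 CPM in control replicates 1, 2 and 3 to 50.2, 47.1 and 64.9 CPM in activated replicates 1, 2 and 3. Its log2 fold change of 0.91 ± 0.11 (edgeR adjusted p = 5.68e-05) was 0.51 relative to other astrocyte genes. Fgfr3, the fibroblast growth factor receptor of astrocytes and their precursors, had 17.8, 19.6 and 15.9 CPM and 23.6, 24.5 and 31.5 CPM, a log2 fold change of 0.59 ± 0.11. Notch1, a receptor that keeps neural precursors undifferentiated, stood at 40.5, 34.9 and 32.9 CPM and 52.1, 48.4 and 59.5 CPM (0.57 ± 0.090). Ptprz1, a receptor phosphatase of precursors and astrocytes, and Fzd1, a Wnt receptor, had log2 fold changes of 0.44 and 0.42. Relative to other astrocyte genes the values were 0.18 for Fgfr3, 0.17 for Notch1, 0.053 for Ptprz1 and 0.026 for Fzd1. Ntsr2, the neurotensin receptor of astrocytes, was scarce, at 3.04, 2.67 and 2.75 CPM and 3.33, 3.88 and 5.17 CPM. Its log2 fold change of 0.57 ± 0.18 did not pass when control replicate 2 (0.55), control replicate 3 (0.55) or activated replicate 3 (0.37) was left out, with the replicate number as a block (0.55), or relative to other astrocyte genes (0.16, edgeR adjusted p = 0.52).

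Transcription regulators were divided. Of 5 members, Id3, Gli3 and Sox9 rose by TMM and the other two did not pass, with log2 fold changes from −0.079 to 0.98, and Sox9 and Hopx turned negative relative to other astrocyte genes. Id3 (ENSMUSG00000007872.3, chromosome 4, 136143497 to 136145755, plus strand) and Id4 (ENSMUSG00000021379.2, chromosome 13, 48261228 to 48266026, plus strand) encode inhibitors that sequester basic helix-loop-helix factors. Id3 had 5.55, 5.93 and 5.26 CPM in control replicates 1, 2 and 3 and 10.5, 10.1 and 12.2 CPM in activated replicates 1, 2 and 3, with every library labelled activated well above every control (log2 fold change 0.98 ± 0.12, edgeR adjusted p = 6.26e-05). Id4 had 19.4, 20.8 and 22.5 CPM and 18.7, 20.4 and 20.1 CPM, with overlapping groups and a log2 fold change of −0.079 ± 0.084 (edgeR adjusted p = 0.477). Its value was −0.48 with a call relative to other astrocyte genes and 0.37 with a call when libraries were scaled to neuronal genes. The difference between the 2 paralogues was not tested.

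Gli3, a transcriptional effector of Hedgehog signalling, rose from 10.2, 7.45 and 8.75 CPM to 16.2, 16.7 and 16.1 CPM, with almost equal values in the 3 libraries labelled activated (log2 fold change 0.88 ± 0.11). Sox9, the factor that sets up glial fate, had 23.2, 22.5 and 21.0 CPM and 24.9, 24.3 and 30.8 CPM. The groups did not overlap, but the log2 fold change was only 0.27 ± 0.094 by TMM (edgeR adjusted p = 0.0387) and −0.14 relative to other astrocyte genes. It did not pass when control replicate 2 (0.29), control replicate 3 (0.23) or activated replicate 3 (0.14) was left out, with total counts only (0.20), in unstranded counts (0.24) and with the replicate block (0.26). Hopx, a homeodomain protein without DNA binding that marks outer radial glia, stood at 4.70, 5.29 and 4.17 CPM and 4.52, 4.85 and 6.02 CPM with overlapping groups, a log2 fold change of 0.14 ± 0.15 by TMM and −0.27 relative to other astrocyte genes.

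Secreted and calcium-binding proteins held the largest change, that of Chil1, and 2 of the genes that did not pass. Chil1 (ENSMUSG00000064246.10, chromosome 1, 134182176 to 134190181, plus strand), the chitinase-like protein also known as YKL-40, and Lcn2 (ENSMUSG00000026822.14, chromosome 2, 32384633 to 32388252, minus strand), the iron-siderophore carrier lipocalin-2, are known for rising in reactive astrocytes. Lcn2 had 59.0, 56.2 and 38.9 CPM in control replicates 1, 2 and 3 and 121, 85.8 and 137 CPM in activated replicates 1, 2 and 3. Control replicate 3 was the lowest library and activated replicate 2 the lowest of its group, and the groups did not overlap. The log2 fold change was 1.16 ± 0.16 (edgeR adjusted p = 1.24e-04), 0.76 relative to other astrocyte genes. Chil1 was far scarcer, at 0.636, 0.72 and 0.621 CPM and 1.73, 1.40 and 3.04 CPM, with a log2 fold change of 1.68 ± 0.31 (edgeR adjusted p = 9.82e-04) that was 1.23 without activated replicate 3. Serpina3n, a serine protease inhibitor of the acute phase response, had 27.9, 22.4 and 20.7 CPM and 36.9, 30.9 and 49.2 CPM, a log2 fold change of 0.73 ± 0.14.

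Apoe (ENSMUSG00000002985.16, chromosome 7, 19696109 to 19699188, minus strand), the main lipid carrier made by astrocytes, went from 250.4, 242 and 222 CPM to 357, 361 and 441 CPM in replicates 1, 2 and 3 of each group, a log2 fold change of 0.70 ± 0.083 (edgeR adjusted p = 5.58e-05). Clu, the chaperone-like lipoprotein clusterin, had 174, 172 and 159.9 CPM and 219.7, 210.3 and 245 CPM, with 0.42 ± 0.069 by TMM and 0.020, not passing, relative to other astrocyte genes. Cst3, the protease inhibitor cystatin C, stood at 227, 211 and 194 CPM and 242, 262 and 351 CPM, where activated replicate 3 was far above the rest. Its log2 fold change of 0.44 ± 0.11 was 0.26 without that library, and 0.034 with no call relative to other astrocyte genes. The matricellular proteins SPARC and hevin, which act on synapse formation in opposite ways, are encoded by Sparc and Sparcl1. Sparc rose from 288, 243 and 247 CPM to 469.7, 394 and 424 CPM (log2 fold change 0.72 ± 0.081, edgeR adjusted p = 4.00e-05). Sparcl1 had 342, 334 and 341 CPM and 350.4, 320.3 and 399 CPM with overlapping groups, and a log2 fold change of 0.072 ± 0.076 (edgeR adjusted p = 0.476). Relative to other astrocyte genes Sparcl1 was called lower (−0.33), and scaled to neuronal genes it was called higher (0.51). S100b, a calcium-binding protein of mature astrocytes, was near the filter, at 0.565, 0.254 and 0.621 CPM and 1.07, 0.539 and 0.878 CPM with overlapping groups (0.70 ± 0.37, edgeR adjusted p = 0.15). Of all reads at S100b, 45.0% lay on the opposite strand, where Dip2a overlaps it outside its exons, and in unstranded counts S100b was called (0.997). Among the other tested members the opposite-strand share was 10.2% for Chil1 and at most 4.02%, that of Notch1.

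Levels per kilobase of exon, the scale on which genes can be compared with each other, spanned from 0.199 CPM per kilobase for Atp13a4 to 196 for Cst3 among the tested members (mean of both groups). Next to Cst3, the most abundant were Apoe (146 CPM per kilobase), Sparcl1 (118), Sparc (91.0), Vim (72.4), Fabp7 (59.8) and Clu (57.3). Per kilobase, the levels of Fabp7 and Vim stood above those of Gfap (11.9), Aldh1l1 (7.64), Aqp4 (7.08) and Gja1 (3.88). The glutamate transporter genes Slc1a2 and Slc1a3 stood at 37.2 and 21.0 CPM per kilobase in labelled control libraries and at 47.2 and 33.9 in labelled activated ones. Across the 37 tested members the size of the log2 fold change was weakly related to the level per kilobase (Spearman's rho −0.19) and hardly to exon length (−0.022), given as descriptions across genes that share the same 6 libraries. Exon length here is the union of all annotated exons, so genes with long unused exons are understated.

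**Figure D3:**
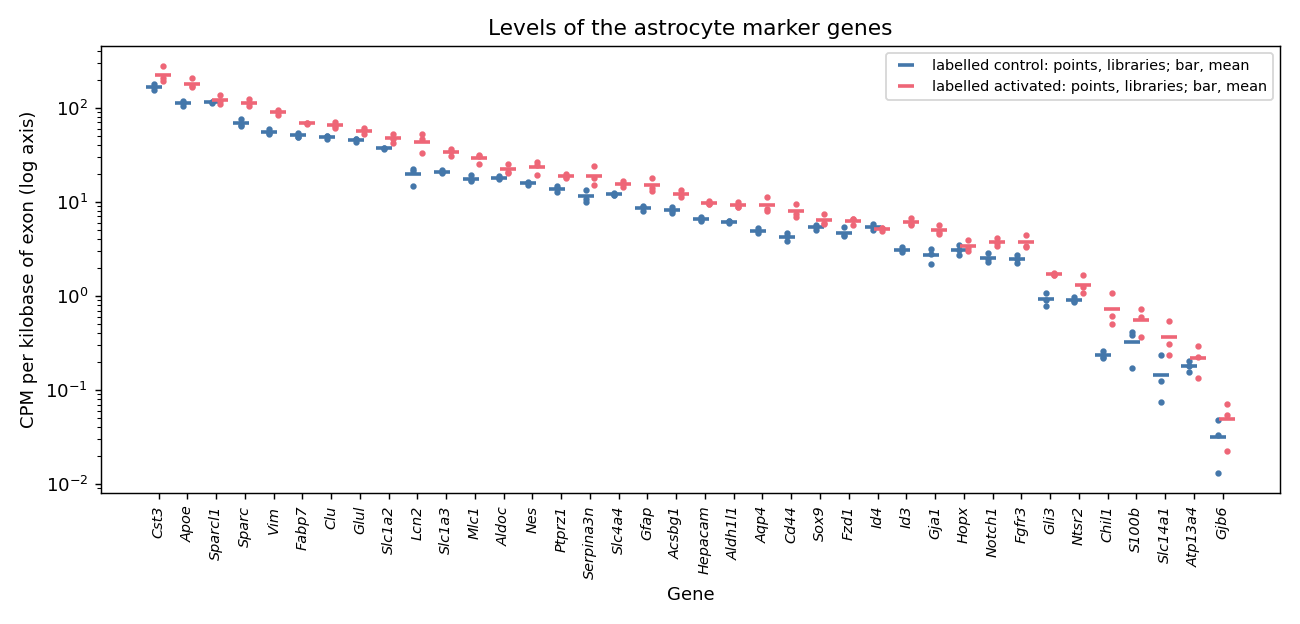
Level of all 38 astrocyte markers on a log axis, in CPM per kilobase of exon, ordered from the highest to the lowest mean. Points are the 3 libraries of each group (blue, labelled control; red, labelled activated) and horizontal bars are group means. Cst3 is the highest at 196 and Gjb6 the lowest at 0.04 CPM per kilobase.

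The libraries did not contribute evenly. Within the libraries labelled activated, replicate 3 was the highest for 26 of the 37 tested members, replicate 1 for 7 and replicate 2 for 4. Replicate 2 was the lowest of its group for 21. Medians over the members, as log2 CPM minus the control mean, were 0.58, 0.51 and 0.74 in activated replicates 1, 2 and 3, and 0.074, −0.031 and −0.070 in control replicates 1, 2 and 3. Control replicate 1 was the highest of its group for 23 members. Leaving out activated replicate 3 left 30 members higher, around a median of 0.52, where 17.9% of all genes tested were higher.

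Other genes of astrocytes in part rose as well. Of 47 genes listed beside the members, 43 were tested. Their median log2 fold change was 0.41, and 24 rose while 19 did not pass. The 5 most abundant were the proteoglycan gene Ncan (0.21), the metallothionein genes Mt2 (0.49) and Mt3 (0.15), the glypican gene Gpc4 (0.52) and the transcription factor gene Nfix (−0.19), of which Ncan, Mt2 and Gpc4 rose and the others did not pass. Under the astrocyte scaling, which is built from this list, 5 were higher and 6 lower. Of all genes tested, 2.21% were higher under it and 8898 of 18132 lower. Genes known for reactive astrocytes had a higher median of 0.83, with 21 of 30 tested higher, 8 not passing and Fkbp5 lower (−0.34), the last named after its value was seen. Its most abundant members were the histocompatibility gene H2-D1 (0.42), the complement gene C3 (1.10), S100a10 (−0.25), Stat3 (−0.071) and the sphingosine phosphate receptor gene S1pr3 (0.84). C3 stood at 54.4, 45.6 and 39.1 CPM and 106, 79.3 and 112 CPM in replicates 1, 2 and 3 of each group. Relative to other astrocyte genes the reactive list had a median of 0.43, beside −0.35 over all genes tested, with 16 higher and 4 lower. The genes of the 2 lists are also expressed by other cells of the culture to a degree these data do not give.

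Notch1, Gli3 and Fzd1 belong to the Notch, Hedgehog and Wnt pathways, whose other genes were mixed. Of 32 listed genes 29 were tested, and their median log2 fold change was 0.27. While 14 rose and 2 fell, 13 did not pass. The 5 most abundant were Ctnnb1, which encodes beta-catenin (−0.11), the Wnt receptor gene Fzd3 (0.082), the Notch inhibitor gene Numb (0.0044), the Wnt coreceptor gene Lrp6 (0.24) and the Notch ligand gene Jag2 (0.28), of which Lrp6 and Jag2 rose and the others did not pass. The genes that fell were Hey1 (−0.39) and Hes6 (−0.54), named after their values were seen. Relative to other astrocyte genes the median was −0.12, with 2 higher and 6 lower. Over all genes tested that scaling gave a median of −0.35, with 2.21% higher and 8898 of 18132 lower.

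Markers of other cell types moved with the same labels, and their part in the members' values was not tested. Of 22 neuronal genes 18 fell, 3 did not pass and Map2 rose (0.26; named after its value was seen), around a median of −0.46, which was −0.85 relative to other astrocyte genes. Among the most abundant, Tubb3, a neuronal tubulin, fell (−0.79), as did the growth-cone gene Gap43 (−0.53), whereas the synaptic vesicle genes Syp (−0.071) and Syt1 (−0.062) and the surface glycoprotein gene Thy1 (0.037) did not pass. Of 18 endothelial, mural and fibroblast markers, 13 were tested, 9 rose and 4 did not pass (median 0.71), and their summed level ran from 246 to 276 CPM in labelled control and from 386 to 447 CPM in labelled activated libraries. The endothelial genes Cldn5, Tek and Cdh5 and the fibroblast gene Lum were at 0 reads in at least 1 library. Of 16 oligodendrocyte lineage markers, 8 were tested, 4 rose and 4 did not pass (median 0.41). Of the 5 most abundant, Olig1 (0.54), Olig2 (0.70) and Cspg4 (0.81) rose, and Cnp (0.18) and Mbp (−0.0051) did not pass. The list had summed levels of 63.0 to 67.4 and 80.7 to 92.0 CPM. Sox10, Mog, Mag, Mobp, Enpp6, Gpr17 and Ermn were at 0 in at least 1 library, 1 of them in all 6.

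Microglia markers, relevant to Apoe and Cst3, were low and uneven. Their summed level over 16 genes was 79.1, 85.4 and 62.9 CPM in control replicates 1, 2 and 3 and 76.3, 107 and 142 CPM in activated replicates 1, 2 and 3. Of 14 tested, 8 rose, around a median of 0.62, but only 1 did so without activated replicate 3 or without control replicate 3. The count was also 1 with the replicate block, 3 with total counts only, 4 with the DESeq2 Wald test or without control replicate 1, and 0 relative to other astrocyte genes. It was 14 scaled to neuronal genes. Under the remaining settings it ran from 6, without control replicate 2 or activated replicate 2, to 10, without a low-count filter. Of all genes tested, 16.2% were higher by TMM, 2.21% relative to other astrocyte genes and 64.7% scaled to neuronal genes. That share was 10.7% to 17.9% under the settings with counts of 1, 3 or 4. Under the remaining settings it was 8.76% to 21.8%. All libraries held some reads of every marker in the list, although P2ry12 and Tmem119 were too low to test. In the same order of libraries, Apoe stood at 250, 242 and 222 CPM in labelled control and 357, 361 and 441 CPM in labelled activated. Cst3 stood at 227, 211 and 194 CPM and at 242, 262 and 351 CPM. The share of microglia in these values was not tested. Genes of dividing cells summed to 36.6 to 44.0 CPM in labelled control and 36.4 to 43.0 CPM in labelled activated libraries. Of 15 cell cycle genes tested, Rrm2 (0.66) and Mki67 (0.61) rose and Pcna (−0.45) fell. Of 7 ependymal and choroid plexus markers tested Ttr, Foxj1 and Rarres2 rose and 4 did not pass (median 0.52). The log2 fold changes of these 7 ran from −0.53 to 0.81. Mki67 was named after its value was seen.

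**Figure D4:**
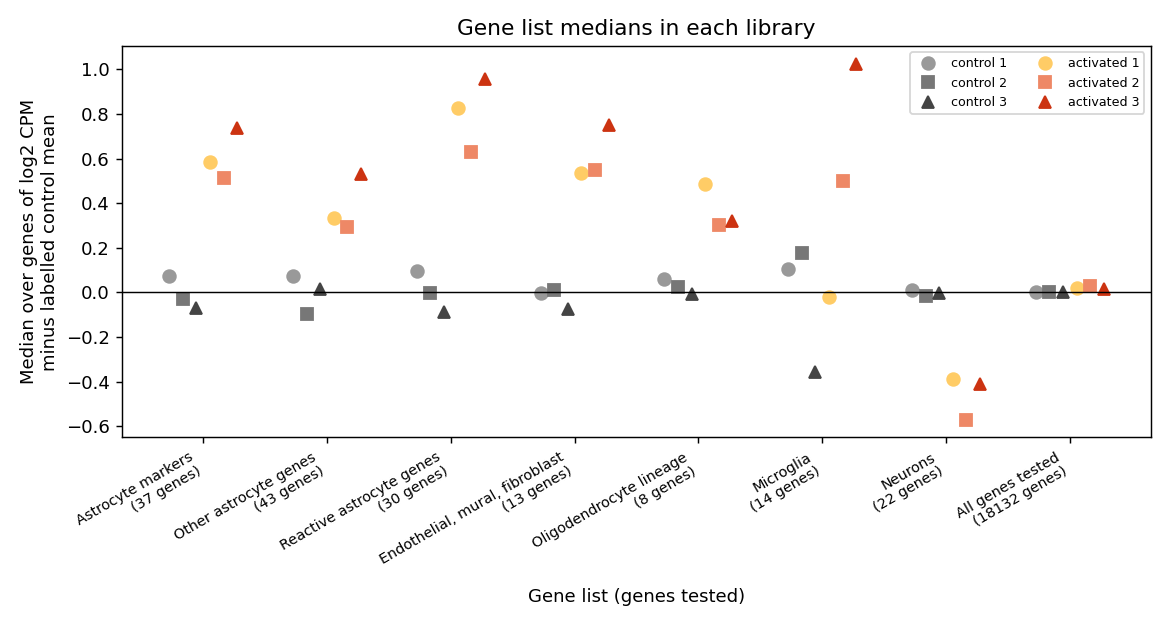
Median over the tested genes of each list of log2 CPM by TMM minus the mean of the labelled control libraries, for each of the 6 libraries (grey, labelled control; yellow to red, labelled activated; symbols give the replicate). The astrocyte markers lie at 0.51 to 0.74 in libraries labelled activated and neuronal genes at −0.57 to −0.39; microglia markers range from −0.020 to 1.03. Relative to other astrocyte genes the astrocyte marker median is 0.19 and 8 markers turn negative, of which only Sparcl1 was called. Scaled to neuronal genes, Id4 turns positive.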

How the data were processed

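The deposited files hold counts of reads per gene for 6 libraries, aligned to mm10 with STAR 2.5.2b, per the submitters' processing notes, which also name edgeR. Aligner parameters and the annotation release are not given in the sources used here. Libraries were strand-specific, rRNA-depleted and read as 2 ends of 150 bp, per the labels' protocols. The reverse-strand column was used, since opposite-strand reads were 4.05% to 4.29% of both. The 4 lines naming no gene were kept out: 25.1% to 37.3% of reads lay outside features, 7.49% to 9.88% were unmapped, 5.17% to 6.34% multimapping and 0.736% to 0.977% ambiguous. Symbols, coordinates and exon lengths came from GENCODE M21 (55144 of 55385 identifiers matched).

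Genes were filtered with filterByExpr (minimum count 10, total 15), scaled by TMM and tested by edgeR 4.0.16 quasi-likelihood (R 4.3.3) with Benjamini-Hochberg adjustment at 0.05. A standard error is the size of a log2 fold change divided by the root of its F statistic. Log2 CPM used a prior count of 2. CPM per kilobase divides CPM by union exon length. Alternatives, including DESeq2 1.42.0, are given in the closing section. The procedure was tested on simulated counts, and plots used matplotlib 3.10.9. Members, lists and tests were chosen with earlier results of these data known. All members are described. Of other lists, at most the 5 genes with the highest mean level per length (TPM) were named for their change, plus Fos, Arc and Npas4. Genes said to be named after their values were seen are further exceptions. Some genes at 0 reads or too low to test were also named. No library pair was identical.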

Additional observations from a re-analysis of the deposited data

How the results depend on the processing

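The number of members called higher was 32 with DESeq2 size factors, without a low-count filter, in unstranded counts and with either the Wald test of DESeq2 or the likelihood-ratio test of edgeR, 31 with total counts only and with a filter of 1 CPM in 3 libraries, and 32 with mitochondrial transcripts left out, the last chosen after seeing the data. None was called lower under these settings. Of all genes tested, the share called higher ran from 8.76% without a low-count filter to 21.8% with the filter of 1 CPM. Members tested were 38 without a low-count filter and 35 with the filter of 1 CPM. Leaving out 1 library at a time gave 29 to 32 higher and 0 lower, with the members' median log2 fold change between 0.52 and 0.64. In these fits 10.7% to 17.9% of all genes tested were higher. Scaling to neuronal genes moved the median to 1.02, with 37 higher, where 64.7% of all genes tested were higher. Scaling to other astrocyte genes gave 15 higher, 2 lower and a median of 0.19, where 2.21% of all genes tested were higher.

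Values reversed in sign relative to other astrocyte genes were those of Slc1a2 (−0.055), Aldoc (−0.11), Sox9 (−0.14), Glul (−0.055), Slc4a4 (−0.018), Sparcl1 (−0.33), Atp13a4 (−0.091) and Hopx (−0.27). Of these only Sparcl1 was called. Id4 reversed when scaled to neuronal genes (0.37), and Sparcl1 without activated replicate 3 (−0.019, the lowest of a range up to 0.14 over the libraries left out in turn). Under these scalings the reversal follows from the shift of all genes, whose median moved to −0.35 and 0.49; for Sparcl1 without activated replicate 3 the cause was not tested. Over all genes tested, 55.9% of calls were lower by TMM, 68.7% with total counts only, 1.53% scaled to neuronal genes (11728 higher, 182 lower) and 95.7% scaled to other astrocyte genes (400 higher, 8898 lower).

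The labels do not say whether the replicate numbers shared by the groups pair the libraries. Deviations from group means correlated at −0.014, −0.18 and −0.21 for numbers 1, 2 and 3, and no library correlated best with its own number. Such deviations cancel out within each group and so depend on each other, and they cannot settle whether libraries were paired. With the replicate block 30 members were higher and none lower (median 0.58); the calls of Sox9 and Ntsr2 were lost. Counts were lowest for Gjb6, S100b, Slc14a1, Chil1 and Atp13a4, all below 2 CPM in every labelled control library, which limits the precision of their values.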
